A study of Homo sapiens with 16 samples.

Results

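The p53 and RB pathways were followed through 9 genes, MDM2, CDKN1A, PHLDA3, BAX, CDKN2A, CDKN2B, CDKN1B, RB1 and CCND1, chosen by name from the 23709 genes of each deposited table. All 9 were found in all 16 libraries. The libraries came from 2 human lung lines, H1299 and HBE, in 4 RNA fractions by label: mRNA, cytosol, nuclear and RNC, the ribosome-nascent chain complexes pelleted through sucrose after cycloheximide. H1299 is an established line from a non-small cell lung carcinoma. H1299 cells were transfected with pCMV-N-Flag-FLII, a plasmid that drives Flag-tagged FLII from a CMV promoter (H1299 FLII), or with empty pCMV-N-Flag (H1299 vector). HBE, a bronchial epithelial line, carried a lentiviral shRNA against FLII as a stable knockdown (HBE shFLII) or was labelled NC (HBE NC), a name that the labels do not spell out. Each of the 16 groups was 1 library of polyA RNA, so every fold below compares single libraries rather than conditions, and the 95% intervals hold counting error alone.

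p53 is a transcription factor that is held low by the ubiquitin ligase MDM2, itself a p53 target, and that raises genes for cell cycle arrest, such as CDKN1A, and for cell death, such as BAX. RB1 encodes the retinoblastoma protein, which binds E2F factors and holds back S phase genes until cyclin D (CCND1) with CDK4 or CDK6 phosphorylates it. The INK4 inhibitors from CDKN2A and CDKN2B block those kinases, CDKN1A and CDKN1B inhibit further cyclin-CDK complexes, and a second CDKN2A product, ARF, restrains MDM2, which joins both pathways at 1 locus.

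Start-site windows were available for 7 of the 9 genes, 11 windows in all, taken from RefSeq on GRCh38.p14 as the 250 bases before each start; PHLDA3 and CCND1 are named only. The deposited counts were made on GRCh37/hg19, per the submitters' processing notes, so these coordinates are of another build. Of the 4 MDM2 windows, the third is shown because it held p53 matches and MDM2 is both regulator and target of p53, the CDKN1A window as that of the other arrest gene, and the CDKN2A and CDKN2B windows because these genes separated the lines most among the higher members. Capitals in MDM2 and CDKN2B mark matches to the p53 consensus site (20 bases, up to 3 mismatches), and capitals in CDKN1A and the second CDKN2A window mark the GC box GGGCGG. In MDM2 and CDKN2B the GC boxes were left in lower case. The windows are MDM2 (chr12:68808767-68809016, plus strand), CDKN1A (chr6:36678464-36678713, plus strand), CDKN2A first start (chr9:21995325-21995574, minus strand), CDKN2A second start (chr9:21974858-21975107, minus strand) and CDKN2B (chr9:22009306-22009555, minus strand).
MDM2: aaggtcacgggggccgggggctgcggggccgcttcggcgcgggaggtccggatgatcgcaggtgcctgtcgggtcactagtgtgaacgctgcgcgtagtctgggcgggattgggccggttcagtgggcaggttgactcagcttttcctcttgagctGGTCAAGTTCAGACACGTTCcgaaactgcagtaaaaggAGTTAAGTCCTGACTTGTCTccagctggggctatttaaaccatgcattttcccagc
CDKN1A: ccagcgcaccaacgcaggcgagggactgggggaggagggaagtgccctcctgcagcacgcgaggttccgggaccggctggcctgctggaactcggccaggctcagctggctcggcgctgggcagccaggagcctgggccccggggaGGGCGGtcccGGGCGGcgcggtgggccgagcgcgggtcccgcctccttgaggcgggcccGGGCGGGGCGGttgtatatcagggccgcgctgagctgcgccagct
CDKN2A first start: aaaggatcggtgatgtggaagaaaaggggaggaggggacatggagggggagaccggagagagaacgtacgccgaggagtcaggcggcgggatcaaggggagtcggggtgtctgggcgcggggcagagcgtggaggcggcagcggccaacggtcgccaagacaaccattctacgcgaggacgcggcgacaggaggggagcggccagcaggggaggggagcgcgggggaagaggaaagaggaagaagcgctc
CDKN2A second start: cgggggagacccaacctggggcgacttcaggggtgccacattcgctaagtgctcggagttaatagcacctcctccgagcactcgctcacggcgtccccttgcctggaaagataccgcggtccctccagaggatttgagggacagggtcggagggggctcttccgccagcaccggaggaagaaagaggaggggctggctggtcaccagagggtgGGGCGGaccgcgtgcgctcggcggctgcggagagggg
CDKN2B: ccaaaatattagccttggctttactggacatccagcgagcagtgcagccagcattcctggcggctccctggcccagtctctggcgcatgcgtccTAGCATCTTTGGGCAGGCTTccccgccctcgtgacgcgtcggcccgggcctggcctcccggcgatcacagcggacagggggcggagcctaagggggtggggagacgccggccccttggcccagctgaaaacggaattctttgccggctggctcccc
The MDM2 window shown, 1 of 4, held 2 p53 consensus matches, which began 94 and 56 bases before the start, and the CDKN2B window held 1, which began 156 bases before it. Another MDM2 window overlaps the one shown and holds the same matches, and the other 2 held none and 1 copy each of TTTGGCGC on the minus strand. The CDKN1B and RB1 windows, not shown, held 1 p53 match each, and the BAX window held none. Windows were matched by gene name and not to the counted transcript. The RB1 window (chr13:48476200-48476449) therefore need not lie at the start of the RB1 transcript that was counted. The CDKN1A window held no such match and 4 copies of the GC box on the plus strand, which began 104, 94, 45 and 40 bases before the start. The MDM2 window shown held 1 GC box, 149 bases before the start on the plus strand. The CDKN2B window held 2, at 134 bases on the minus strand and 78 on the plus strand. Also searched on both strands were the TATA box TATAAA, the E2F sites TTTGGCGC and TTTCCCGC, and a single exact element of the p53 consensus, which 5.57% of the 35116 RefSeq windows of this length held. None of the MDM2, CDKN1A, CDKN2A and CDKN2B windows held that exact element. The RB1 window held it at 1 position, which began 110 bases before the start. CDKN2A had no match to any of these motifs at its first start and 1 GC box at its second. Over 35116 windows of the same length, 4.36% held a p53 match and 42.6% held a GC box on either strand. The allowance of 3 mismatches was set after the MDM2 window had been seen, the p53 consensus reads the same on both strands, and a match is a description of letters only.

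The libraries held 5943676 to 8344359 reads over genes in mRNA, 5914489 to 9259569 in cytosol, 6295282 to 8201848 in nuclear and 26711771 to 38514467 in RNC. FLII, the targeted gene (NM_002018), had 625, 210.0 and 252 RPKM in H1299 FLII against 143, 70.1 and 67.6 in H1299 vector, in mRNA, cytosol and nuclear in that order. In the same order it had 13.8, 8.23 and 11.2 RPKM in HBE shFLII against 75.3, 62.6 and 86.7 in HBE NC, so these 12 libraries followed their labels. In RNC the H1299 pair ran against its labels and the HBE pair differed little: FLII had 5.61 RPKM in the library labelled H1299 FLII against 89.2 in the library labelled H1299 vector, and 30.0 in the library labelled HBE shFLII against 36.5 in the library labelled HBE NC. The RNC libraries therefore stand apart, are named by label throughout, and enter no fold or range of the other fractions. The tissue label of all samples is lung epithelium: the summed level of 8 epithelial markers was 789.7 to 1461 RPKM in the other 6 H1299 libraries and 4423 to 8250 RPKM in the other 6 HBE libraries. That of 4 mesenchymal markers was 668.1 to 2967 RPKM in the 6 H1299 libraries and 1.868 to 102.3 RPKM in the 6 HBE libraries. Of the 4, VIM and ZEB1 were above HBE in H1299 without overlap, beside 15.7% of 16068 genes, while CDH2 and FN1 overlapped. FN1 alone had 91.6 RPKM in HBE shFLII mRNA. The leukocyte marker PTPRC lay between 0 and 0.0442 RPKM in all 16 libraries.

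The line contrast separated the members into 3 kinds. CDKN2A and CDKN2B, the INK4 inhibitors, had 205 to 6173 reads in every H1299 library outside RNC and at most 7 in any HBE library outside RNC. The p53 targets PHLDA3 and CDKN1A were lower in H1299 in every pair, PHLDA3 by 125-fold or more, and BAX was lower by 2.21-fold to 2.96-fold in 5 pairs. MDM2, CDKN1B, RB1 and CCND1 were not called in any of the 6 pairs. A gene was called where its fold was at least 2 in either direction and its interval excluded a fold of 1. In bulk RNA such as this, fewer cells that express a gene and less RNA per cell cannot be told apart.

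MDM2 (NM_002392), the ligase that degrades p53, was at a similar level in both lines. In mRNA, MDM2 had 8.77 RPKM (547 reads) in H1299 FLII and 8.49 (377) in H1299 vector, against 11.7 (654) in HBE shFLII and 9.17 (567) in HBE NC. The cytosol libraries gave 4.82 RPKM (225 reads) in H1299 FLII and 7.53 (521) in H1299 vector, against 3.21 (158) in HBE shFLII and 3.28 (145) in HBE NC. The nuclear libraries gave 8.61 RPKM (414 reads) in H1299 FLII and 7.44 (350) in H1299 vector, against 6.76 (414) in HBE shFLII and 6.33 (347) in HBE NC. H1299 was the lower line in mRNA and the higher one in cytosol, and the 6 H1299 values overlapped the 6 HBE values. H1299 vector over HBE NC gave log2 folds of −0.38 (interval −0.57 to −0.19) in mRNA, 0.73 (0.46 to 1.01) in cytosol and −0.01 (−0.23 to 0.21) in nuclear RNA. H1299 FLII over HBE shFLII gave −0.51 (−0.68 to −0.34) in mRNA, 0.26 (−0.04 to 0.56) in cytosol and 0.10 (−0.10 to 0.30) in nuclear RNA. Scaled by total counts rather than TMM, the cytosol value of the control pair passed the threshold, at 1.20.

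CDKN1A (NM_001220778) encodes p21, the CDK inhibitor through which p53 arrests the cell cycle. In mRNA, CDKN1A had 31.2 RPKM (590 reads) in H1299 FLII and 36.8 (496) in H1299 vector, against 114 (1948) in HBE shFLII and 74.0 (1389) in HBE NC. In cytosol it had 75.3 RPKM (1067 reads) in H1299 FLII and 64.3 (1350) in H1299 vector, against 214 (3205) in HBE shFLII and 221 (2960) in HBE NC. In nuclear RNA it had 32.1 RPKM (468 reads) in H1299 FLII and 33.1 (473) in H1299 vector, against 90.5 (1685) in HBE shFLII and 95.8 (1594) in HBE NC. Within each fraction both H1299 libraries lay below both HBE libraries, and the lines met only across fractions, where the H1299 FLII cytosol value was just above the HBE NC mRNA value. The control pair, H1299 vector over HBE NC, was 2.42-fold lower in mRNA, 4.74-fold lower in cytosol and 3.42-fold lower in nuclear RNA. H1299 FLII over HBE shFLII was 3.93-fold, 3.57-fold and 3.35-fold lower in the same order, and all 6 pairs were called. The mRNA control pair was at −0.99 on the log2 scale when computed from the deposited RPKM, just short of the threshold.

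PHLDA3 (NR_073080), a p53 target whose product competes with AKT for membrane lipids and so represses it, showed the largest drop of the 9 genes. In mRNA, PHLDA3 had 0.664 RPKM (9 reads) in H1299 FLII and 0.932 (9) in H1299 vector, against 118 (1446) in HBE shFLII and 106 (1430) in HBE NC. Its cytosol level was 3.15 RPKM (32 reads) in H1299 FLII and 0.465 (7) in H1299 vector, against 319 (3409) in HBE shFLII and 289 (2773) in HBE NC. Its nuclear level was 0.478 RPKM (5 reads) in H1299 FLII and 0.782 (8) in H1299 vector, against 200.1 (2667) in HBE shFLII and 198 (2363) in HBE NC. The highest H1299 value was below the lowest HBE value in all fractions together. H1299 vector over HBE NC was 131-fold lower in mRNA (log2 −7.03, interval −8.23 to −6.17), 776-fold lower in cytosol (−9.60, −11.06 to −8.70) and 282-fold lower in nuclear RNA (−8.14, −9.44 to −7.25). H1299 FLII over HBE shFLII was 125-fold lower in cytosol (−6.96, −7.54 to −6.49), the least of the 6 pairs. PHLDA3 was the member with the highest RPKM in all 6 HBE libraries outside RNC, and the lowest in H1299 except in the H1299 FLII cytosol library, where RB1 was lower.

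BAX (NR_027882) encodes the protein that permeabilizes the outer mitochondrial membrane in apoptosis. In mRNA, BAX had 59.3 RPKM (449 reads) in H1299 FLII and 47.4 (256) in H1299 vector, against 110.0 (750) in HBE shFLII and 101 (757) in HBE NC. The cytosol libraries gave 134 RPKM (757 reads) in H1299 FLII and 117 (983) in H1299 vector, against 235 (1406) in HBE shFLII and 250.4 (1345) in HBE NC. The nuclear libraries gave 82.3 RPKM (481 reads) in H1299 FLII and 88.0 (503) in H1299 vector, against 157 (1172) in HBE shFLII and 168 (1117) in HBE NC. BAX was lower in H1299 within each fraction, but the lines overlapped across fractions, and cytosol was the highest fraction in both. The control pair, H1299 vector over HBE NC, was 2.55-fold lower in mRNA, 2.96-fold lower in cytosol and 2.25-fold lower in nuclear RNA. H1299 FLII over HBE shFLII was 2.21-fold lower in cytosol and 2.27-fold lower in nuclear RNA, and at log2 −0.99 (−1.16 to −0.82) in mRNA it was not called. With total counts in place of TMM the 2 nuclear pairs, both at −0.93, and the cytosol pair of H1299 FLII over HBE shFLII, at −0.82, were no longer called.

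**Figure D1:**
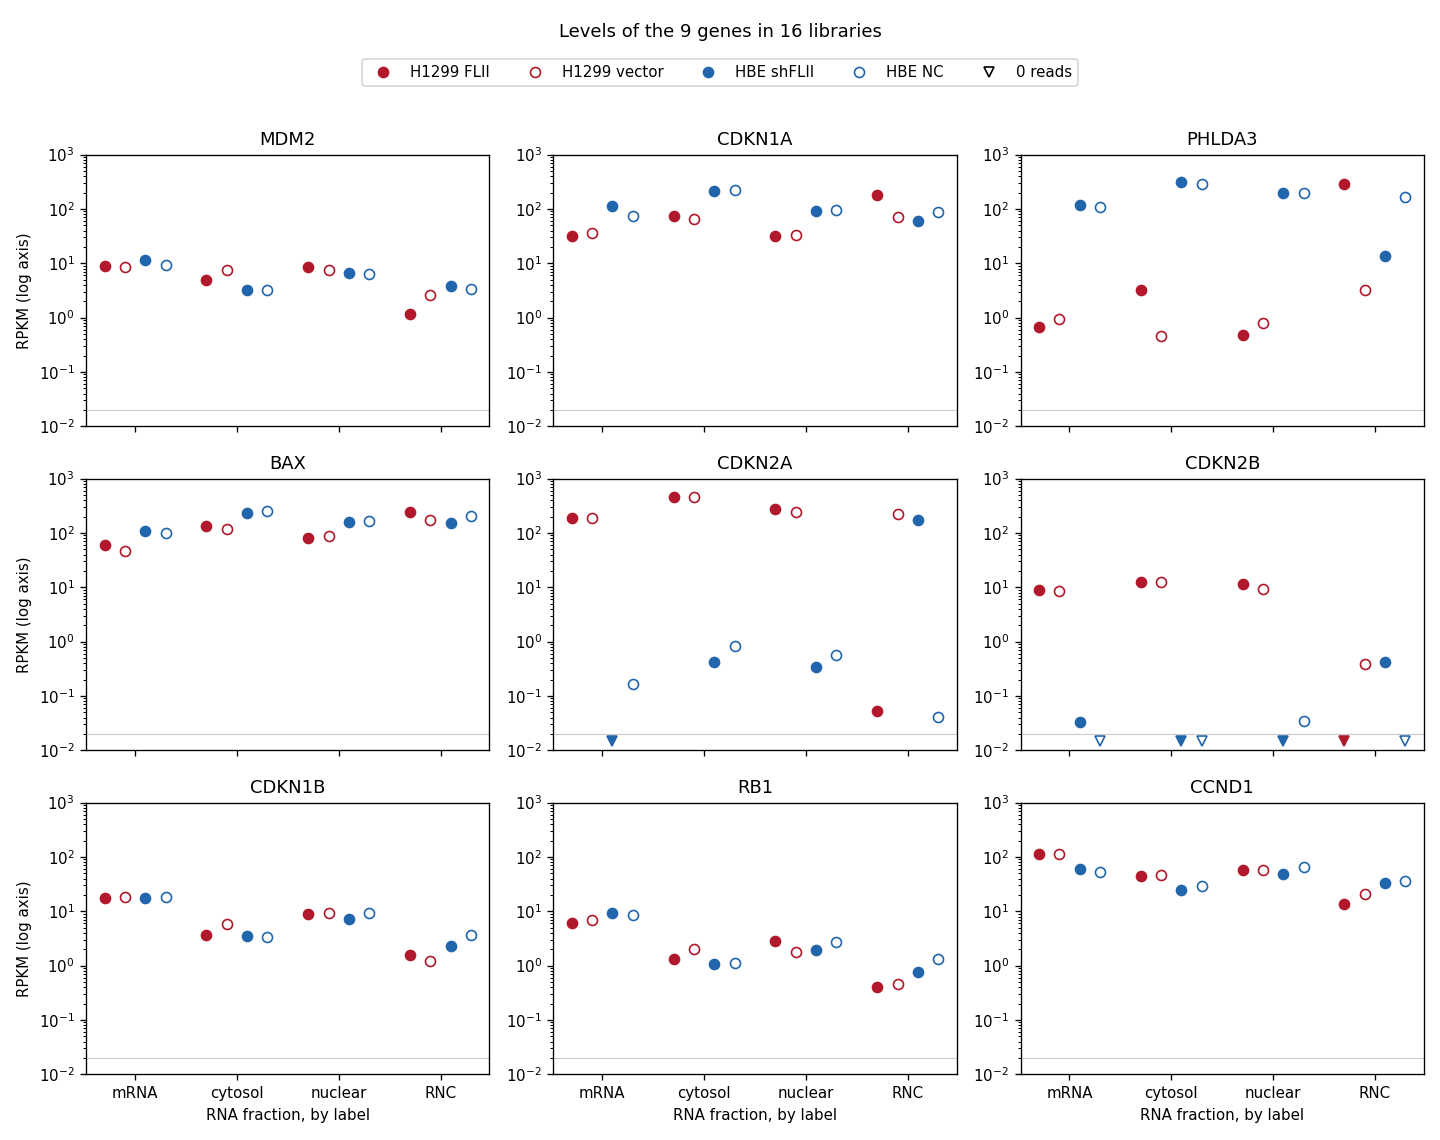
RPKM on a log axis for each of the 9 genes, 1 panel a gene, by RNA fraction, with 1 point for each library (H1299 FLII, H1299 vector, HBE shFLII, HBE NC) and triangles at the foot for 0 reads. Outside RNC, PHLDA3 sat at 0.465 to 3.15 RPKM in H1299 and 106 to 319 in HBE, and CDKN2A at 188 to 465 in H1299 and 0 to 0.816 in HBE; in the libraries labelled RNC these positions did not follow the labels.

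CDKN2A (NM_001195132) encodes p16INK4a, the inhibitor of CDK4 and CDK6, and from its first start p14ARF, the inhibitor of MDM2. The deposited data give a single count for this gene, and how its variants entered that count was not given. The products of its first and second start therefore cannot be told apart. In mRNA, CDKN2A had 190.2 RPKM (2303 reads) in H1299 FLII and 188 (1623) in H1299 vector, against 0 (0) in HBE shFLII and 0.167 (2) in HBE NC. In cytosol it had 465 RPKM (4213 reads) in H1299 FLII and 459 (6173) in H1299 vector, against 0.419 (4) in HBE shFLII and 0.816 (7) in HBE NC. In nuclear RNA it had 276 RPKM (2580 reads) in H1299 FLII and 245 (2234) in H1299 vector, against 0.336 (4) in HBE shFLII and 0.564 (6) in HBE NC. It was the highest of the 9 genes in every H1299 library outside RNC and near 0 in every HBE library outside RNC. H1299 FLII over HBE shFLII was at least 645-fold higher in mRNA, against a floor of 3 reads in the HBE library, 794-fold higher in cytosol and 614-fold higher in nuclear RNA. H1299 vector over HBE NC was 389-fold higher in cytosol (log2 8.60, 7.63 to 9.99) and 339-fold higher in nuclear RNA, and in mRNA, with 1623 reads against 2, its log2 ratio was 9.53 (8.02 to 12.92).

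CDKN2B (NM_078487), next to CDKN2A on chromosome 9, encodes p15INK4b, an inhibitor of the same kinases. In mRNA, CDKN2B had 8.99 RPKM (299 reads) in H1299 FLII and 8.66 (205) in H1299 vector, against 0.0334 (1) in HBE shFLII and 0 (0) in HBE NC. Its cytosol level was 12.4 RPKM (308 reads) in H1299 FLII and 12.5 (461) in H1299 vector, against 0 reads in both HBE libraries. Its nuclear level was 11.4 RPKM (292 reads) in H1299 FLII and 9.21 (231) in H1299 vector, against 0 (0) in HBE shFLII and 0.0342 (1) in HBE NC. The H1299 values were all above the HBE values, and per length CDKN2B was far below CDKN2A in H1299. The control pair, H1299 vector over HBE NC, was at least 79.1-fold higher in mRNA and at least 71.0-fold higher in cytosol, against the same floor of 3 reads. H1299 FLII over HBE shFLII was at least 86.3-fold higher in cytosol and at least 105-fold higher in nuclear RNA. The pairs with 1 HBE read had log2 ratios of 7.43 (5.48 to 13.28) in mRNA and 7.25 (5.34 to 13.14) in nuclear RNA. CDKN2A and CDKN2B are paralogs that could share reads, and reads of the antisense transcript CDKN2B-AS1, which overlaps CDKN2B, cannot be told apart from it where the strand setting is not given.

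The genes around CDKN2A were read from a list of 6 neighbours; on GRCh38 the order along chromosome 9 is KLHL9, IFNE, MTAP, CDKN2A, CDKN2B, DMRTA1. MTAP, the enzyme that salvages methionine from polyamine synthesis, had 460 reads in H1299 FLII against 1 in HBE shFLII and 361 in H1299 vector against 2 in HBE NC in mRNA, a log2 ratio of 7.37 (5.84 to 10.76) for the control pair. In the other fractions the MTAP log2 ratios were 4.65 (3.23 to 7.09, on 181 against 3 reads) for H1299 vector over HBE NC in cytosol and 4.25 (183 against 9 reads) in nuclear RNA. CDKN2B-AS1 had 71 reads in H1299 vector against 2 in HBE NC in cytosol, and 38 against 1 in nuclear RNA. DMRTA1, a DM domain factor, had 49 reads in H1299 vector against 2 in HBE NC in mRNA. MTAP, CDKN2B-AS1 and DMRTA1 were above HBE in all 6 H1299 libraries outside RNC, 3 of 5 neighbours tested, beside 15.7% of 16068 genes. KLHL9, at log2 −0.50 in the mRNA control pair, was not called there. In the HBE libraries outside RNC, reads were thus few at MTAP, CDKN2B-AS1 and DMRTA1, and the data hold no measure of the DNA there. In RNC, MTAP had 14 reads in the library labelled H1299 FLII and 126 in that labelled H1299 vector, and 115 in that labelled HBE shFLII and 63 in that labelled HBE NC, the last at 54.9% of the level in that labelled H1299 vector.

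CDKN1B (NM_004064) encodes p27, which inhibits cyclin E and cyclin A complexes with CDK2 and is controlled mostly at the protein level. In mRNA, CDKN1B had 17.7 RPKM (356 reads) in H1299 FLII and 18.3 (263) in H1299 vector, against 17.4 (316) in HBE shFLII and 18.2 (363) in HBE NC. The cytosol libraries gave 3.72 RPKM (56 reads) in H1299 FLII and 5.95 (133) in H1299 vector, against 3.46 (55) in HBE shFLII and 3.36 (48) in HBE NC. The nuclear libraries gave 8.82 RPKM (137 reads) in H1299 FLII and 9.22 (140) in H1299 vector, against 7.33 (145) in HBE shFLII and 9.21 (163) in HBE NC. The lines overlapped in mRNA and in nuclear RNA, H1299 was higher in cytosol, and mRNA was the highest fraction in both. H1299 vector over HBE NC gave log2 folds of −0.25 (−0.49 to −0.02) in mRNA and 0.35 (−0.13 to 0.86) in cytosol, and none of the 6 pairs was called.

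RB1 (NM_000321) was among the lower members by RPKM, and none of the 6 line pairs was called. Among all genes with reads its RPKM stood at the 55.9th to 61.8th percentile in mRNA and at the 38.9th to 47.5th in cytosol and nuclear RNA. In mRNA, RB1 had 6.13 RPKM (244 reads) in H1299 FLII and 7.05 (200) in H1299 vector, against 9.32 (334) in HBE shFLII and 8.56 (338) in HBE NC. In cytosol it had 1.31 RPKM (39 reads) in H1299 FLII and 2.01 (89) in H1299 vector, against 1.08 (34) in HBE shFLII and 1.10 (31) in HBE NC. In nuclear RNA it had 2.87 RPKM (88 reads) in H1299 FLII and 1.76 (53) in H1299 vector, against 1.92 (75) in HBE shFLII and 2.69 (94) in HBE NC. H1299 was the lower line in mRNA and the higher one in cytosol, and the lines overlapped in nuclear RNA. The RB1 log2 folds ran from −0.84 (−1.36 to −0.35) for H1299 vector over HBE NC in nuclear RNA to 0.40 in cytosol for the same pair.

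CCND1 (NM_053056) encodes cyclin D1, the partner of CDK4 and CDK6 that the INK4 inhibitors oppose. In mRNA, CCND1 had 113 RPKM (4031 reads) in H1299 FLII and 114 (2895) in H1299 vector, against 60.8 (1957) in HBE shFLII and 52.8 (1873) in HBE NC. Its cytosol level was 44.2 RPKM (1183 reads) in H1299 FLII and 46.2 (1834) in H1299 vector, against 24.3 (687) in HBE shFLII and 28.8 (730) in HBE NC. Its nuclear level was 58.2 RPKM (1605 reads) in H1299 FLII and 56.7 (1531) in H1299 vector, against 48.6 (1709) in HBE shFLII and 65.4 (2057) in HBE NC. CCND1 was higher in H1299 in mRNA and cytosol and overlapped in nuclear RNA. The control pair, H1299 vector over HBE NC, gave log2 folds of 0.84 (0.76 to 0.92) in mRNA, below the threshold, and −0.45 (−0.54 to −0.35) in nuclear RNA. With total counts the mRNA value was 1.11 and with the deposited RPKM 1.09, both past the threshold.

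**Figure D2:**
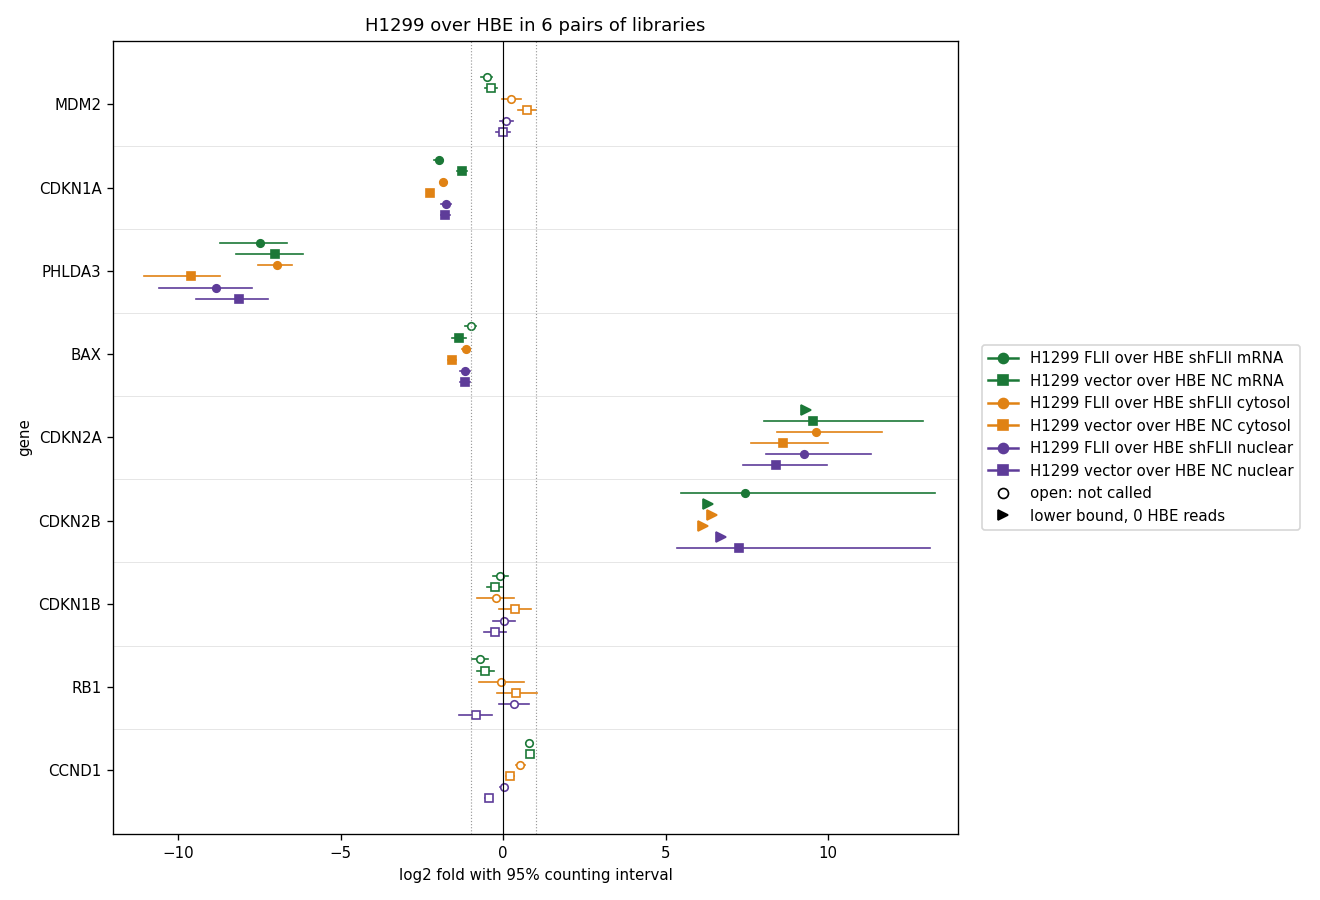
Log2 fold of H1299 over HBE for each gene in 6 pairs of libraries, with 95% counting intervals as bars, filled marks for called folds and triangles for lower bounds where HBE had 0 reads. PHLDA3 lay between −9.60 and −6.96, CDKN2A and CDKN2B on the opposite side, and MDM2, CDKN1B, RB1 and CCND1 within 1 log2 unit of 0.

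By count, 2 of the 9 genes were higher and 3 lower in H1299 vector over HBE NC in mRNA, where 21.2% of all tested genes were higher and 22.4% lower. In H1299 FLII over HBE shFLII in mRNA 2 were higher and 2 lower, beside 21.5% and 20.7% of genes. In cytosol 2 were higher and 3 lower in both pairs, beside 26.7% and 22.2% of genes for H1299 vector over HBE NC and 22.5% and 22.5% for H1299 FLII over HBE shFLII. In nuclear RNA 2 were again higher and 3 lower in both pairs, beside 22.3% and 23.1% for H1299 vector over HBE NC and 22.6% and 23.4% for H1299 FLII over HBE shFLII. The members' shares were thus near those of all genes. Over the 6 H1299 and 6 HBE libraries outside RNC, 2 of the 9 had no overlap with H1299 above and 1 with H1299 below, beside 15.7% and 10.8% of 16068 genes. The pair of H1299 FLII over HBE shFLII also differs in FLII, raised in one line and lowered in the other. By RPKM in mRNA, the order in both H1299 libraries was CDKN2A, CCND1, BAX, CDKN1A, CDKN1B, CDKN2B, MDM2, RB1 and PHLDA3. CDKN2B and MDM2, next to each other in it, were at 8.99 and 8.77 RPKM in H1299 FLII and at 8.66 and 8.49 in H1299 vector. In HBE mRNA, PHLDA3, BAX and CDKN1A came first, then CCND1, CDKN1B, MDM2 and RB1, with CDKN2A and CDKN2B last, and BAX and CDKN1A changed places between HBE shFLII and HBE NC.

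Beyond the members, 33 further p53 targets were listed. In mRNA, 14 were lower and 2 higher in H1299 vector over HBE NC, with a median log2 fold of −0.70, beside 22.4% lower, 21.2% higher and a median of −0.01 over all genes. In H1299 FLII over HBE shFLII in mRNA, 15 were lower and 3 higher, with a median of −0.96, beside 20.7%, 21.5% and 0.01 over all genes. In cytosol the same contrasts gave 9 lower and 7 higher of 30 for the control pair and 11 lower and 6 higher for the other, both with a median of −0.37. Over all genes the cytosol control pair had 22.2% lower, 26.7% higher and a median of 0.13, and the other 22.5%, 22.5% and 0.04. With total counts the cytosol control pair had 8 lower and 8 higher and a median of 0.10, beside 0.60 over all genes. In nuclear RNA, 14 of 31 were lower and 4 higher for H1299 vector over HBE NC, and 16 of 32 lower and 4 higher for the other pair, with medians of −0.67 and −1.02, beside 23.1% and 23.4% lower, 22.3% and 22.6% higher and a median of −0.03 in both over all genes. The list therefore lay below the median of all genes in all 6 pairs, while up to 7 of its members were called higher.

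The named members of that list went both ways. GDF15, a secreted stress cytokine, had 74 reads in H1299 vector against 3055 in HBE NC in mRNA, a log2 fold of −5.15, and log2 folds between −3.09 and −2.60 in cytosol and nuclear RNA. BTG2, an antiproliferative factor, had 6 reads against 261 in the same mRNA pair and log2 folds between −5.40 and −4.69 over the 6 pairs. CYFIP2, a cytoplasmic partner of FMR1, had log2 folds between −4.92 and −3.48. GADD45A, a growth arrest and DNA damage gene, was higher instead, with 1091 reads in H1299 vector against 111 in HBE NC in mRNA, a log2 fold of 3.50, and between 1.40 and 1.65 in cytosol and nuclear RNA. Over the 12 libraries outside RNC, GDF15, DDB2, BTG2, SPATA18, CYFIP2, EDA2R and TRIM22 had no overlap with H1299 below, and PMAIP1, SESN2 and GADD45A none with H1299 above. These were 7 and 3 of 33 tested, beside 10.8% below and 15.7% above of 16068 genes. Those named for this alone were chosen after their values were seen.

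**Figure D3:**
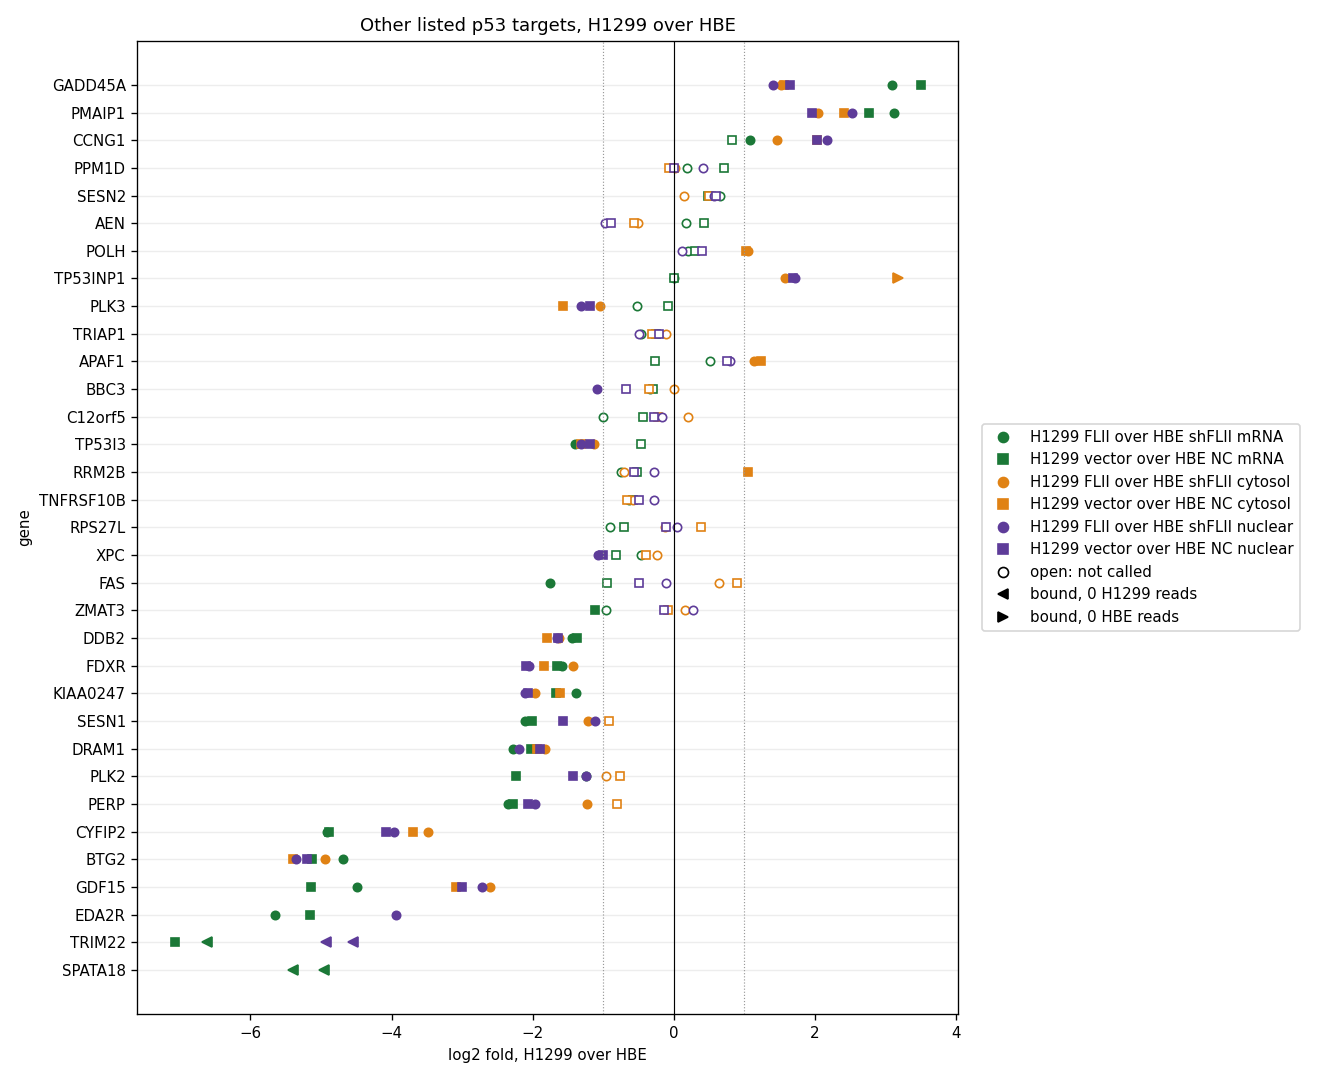
Log2 fold of H1299 over HBE for the other listed p53 targets in 6 pairs of libraries, ordered by the mRNA control pair, with filled marks for called folds and triangles for bounds where 1 line had 0 reads. GADD45A reached 3.50 at the top, while CYFIP2, BTG2 and GDF15 lay between −5.40 and −2.60 near the foot.

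Among the p53 family and its regulators, TP63, the family member that marks basal epithelium, had 1 read in H1299 vector against 1187 in HBE NC in mRNA, a log2 ratio of −9.45 (−15.31 to −7.52), and in nuclear RNA it was at least 72.1-fold lower in H1299 vector (0 reads against 213). EP300, a p53 acetyltransferase, was lower in 5 of the 6 pairs, between −1.41 and −1.72, and at −0.90 in cytosol for H1299 FLII over HBE shFLII it was not called. HIPK2, a p53 kinase, was higher in 5 of 6 pairs, between 1.30 and 2.66, and at 0.93 in the mRNA control pair it was not called.

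The RB pathway list and the E2F targets had more higher than lower calls in mRNA, and did not in every pair of the other fractions. In mRNA, 11 of 24 other RB pathway genes were higher and 3 lower in H1299 vector over HBE NC, with a median log2 fold of 0.92, and 6 were higher and 3 lower in H1299 FLII over HBE shFLII, with a median of 0.54. Over all genes, 21.2% were higher and 22.4% lower in the mRNA control pair, and 21.5% and 20.7% in the other. In cytosol 6 were higher and 4 lower in the control pair, with a median of 0.42, and 4 of 23 higher and 6 lower in the other, with a median of −0.01, which was 0.31 with total counts. Over all genes the cytosol control pair had 26.7% higher, 22.2% lower and a median of 0.13. The other cytosol pair had 22.5%, 22.5% and 0.04 over all genes, with a median of 0.37 by total counts. In nuclear RNA 3 were higher and 5 lower in the control pair and 5 higher and 5 lower in the other, with medians of −0.05 and −0.12 that turned positive with total counts, at 0.19 and 0.12. Over all genes 22.3% were higher and 23.1% lower in the nuclear control pair, and 22.6% and 23.4% in the other. The median over all genes was −0.03 in both, and 0.21 in both with total counts. CCND2, cyclin D2, had 22 reads in H1299 vector against 1054 in HBE NC in mRNA, a log2 fold of −5.34, and was lower in all 6 pairs, reaching −7.23 in the nuclear control pair. CDKN2D, the p19INK4d inhibitor, was higher by 1.30 to 1.98, E2F2 by 1.22 to 2.86, and TFDP1, the E2F partner DP1, was lower, between −2.31 and −1.08. Of 19 E2F targets, 9 were higher and 1 lower in the mRNA control pair, with a median of 0.97, 6 higher and 1 lower in the cytosol control pair, with a median of 0.07, and 3 higher and 2 lower in the nuclear control pair, with a median of 0.17. The shares over all genes are those given for these pairs above. The cytosol median of 0.07 was below the 0.13 of all genes. With DESeq2 size factors that pair had 4 higher and 2 lower and a median of −0.004. In H1299 FLII over HBE shFLII, 6 were higher and 1 lower in mRNA, 3 higher and 1 lower in cytosol, and 3 higher and 4 lower in nuclear RNA. MCM4, a helicase subunit, was higher by 1.28 to 2.30 and CDT1, a licensing factor, by 1.08 to 2.28, while RRM1, a ribonucleotide reductase subunit, was lower, between −2.06 and −1.14.

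BAX belongs to the BCL2 family, of which 13 other genes were listed. In the mRNA control pair 1 of 11 was higher and 5 were lower, with a median of −0.92, and in H1299 FLII over HBE shFLII 1 of 12 was higher and 6 were lower, with a median of −0.66. Over all genes 21.2% were higher and 22.4% lower in the mRNA control pair, and 21.5% and 20.7% in the other. With total counts the mRNA control pair had 1 higher and 3 lower and a median of −0.65. In cytosol 3 of 12 were higher and 5 lower in the control pair, with a median of −0.76, and 3 of 11 higher and 4 lower in the other, with a median of −0.19 that was 0.14 with total counts. Over all genes 26.7% were higher and 22.2% lower in the cytosol control pair, and 22.5% and 22.5% in the other. With total counts the cytosol control pair had 3 higher and 3 lower and a median of −0.30. In nuclear RNA 2 of 11 were higher and 4 lower in the control pair and 2 of 12 higher and 5 lower in the other, with medians of −0.58 and −0.82. Over all genes 22.3% were higher and 23.1% lower in the nuclear control pair, and 22.6% and 23.4% in the other. With total counts the nuclear control pair had 2 higher and 2 lower and a median of −0.34. BIK, a proapoptotic sensitizer, was lower in all 6 pairs, between −1.12 and −3.23. The survival genes BCL2L1 and BCL2L2 were lower as well, BCL2L1 between −1.20 and −1.92 and BCL2L2 between −1.20 and −2.01. BOK, a BAX relative, was higher, between 1.18 and 2.56. Both proapoptotic and survival members were therefore among the lower genes.

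FLII overexpression in H1299 came with a call for 1 of the 9 genes, in 1 fraction. In mRNA 0 of the 8 with enough reads was called, beside 0.798% of all genes; in nuclear RNA 0 of 8, beside 0.599%; and in cytosol 1 of 9, beside 2.68%. The CDKN1A log2 fold of H1299 FLII over H1299 vector was −0.22 (−0.40 to −0.05) in mRNA, 0.30 (0.19 to 0.42) in cytosol and −0.08 in nuclear RNA, so its sign differed between fractions. CDKN2A had folds of 0.03 in mRNA, 0.09 (0.04 to 0.15) in cytosol and 0.14 (0.06 to 0.22) in nuclear RNA. MDM2 had 0.06 in mRNA, −0.57 (−0.80 to −0.34) in cytosol and 0.18 in nuclear RNA. RB1 had −0.19 in mRNA, −0.54 (−1.13 to 0.01) in cytosol and 0.66 (0.16 to 1.19) in nuclear RNA, and CCND1 had 0.01 in mRNA and in cytosol and 0.00 in nuclear RNA.

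The 1 called member was PHLDA3 in cytosol, with 32 reads in H1299 FLII against 7 in H1299 vector, a log2 fold of 2.73 (1.63 to 4.26). In mRNA it had 9 reads in each library, and in nuclear RNA 5 in H1299 FLII against 8 in H1299 vector. The call rested on few reads, and the gene did not pass a minimum of 100. Transcripts typical of HBE moved with it in the same pair: KRT5 had 145 reads in H1299 FLII cytosol against 10 in H1299 vector cytosol (log2 4.42), and KRT17 448 against 43 (4.00). Of 6 epithelial markers kept in that pair, 4 were higher, beside 130 of 12527 genes, and 3 were with total counts. In mRNA of the same states these markers did not rise: 0 of 7 were higher and 3 lower, with a median of −0.43. There 43 of 13033 genes were higher and 61 lower. PHLDA3 was at 1.09% of its HBE NC cytosol level in H1299 FLII and 0.161% in H1299 vector, and KRT5 at 2.45% and 0.114%; their part in the PHLDA3 value was not tested.

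FLII knockdown in HBE called none of the members. In mRNA 0 of 7 was called beside 4.95% of all genes, in cytosol 0 of 7 beside 1.25%, and in nuclear RNA 0 of 7 beside 0.873%; CDKN2A and CDKN2B had too few reads to enter. The largest of these folds in mRNA was that of CDKN1A in HBE shFLII over HBE NC, at log2 0.50 (0.40 to 0.60), 1.41-fold, while the same gene stood at −0.06 in cytosol and −0.11 (−0.21 to −0.01) in nuclear RNA. PHLDA3 had 0.03 in mRNA, 0.13 (0.06 to 0.20) in cytosol and −0.02 in nuclear RNA, and BAX −0.11 in cytosol and −0.12 (−0.24 to −0.01) in nuclear RNA. All of these lay below the threshold, as did the folds of the RB pathway members. CCND1 had 0.07 in mRNA, −0.26 (−0.41 to −0.11) in cytosol and −0.46 (−0.55 to −0.37) in nuclear RNA. RB1 in nuclear RNA was at −0.52 (−0.98 to −0.07).

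**Figure D4:**
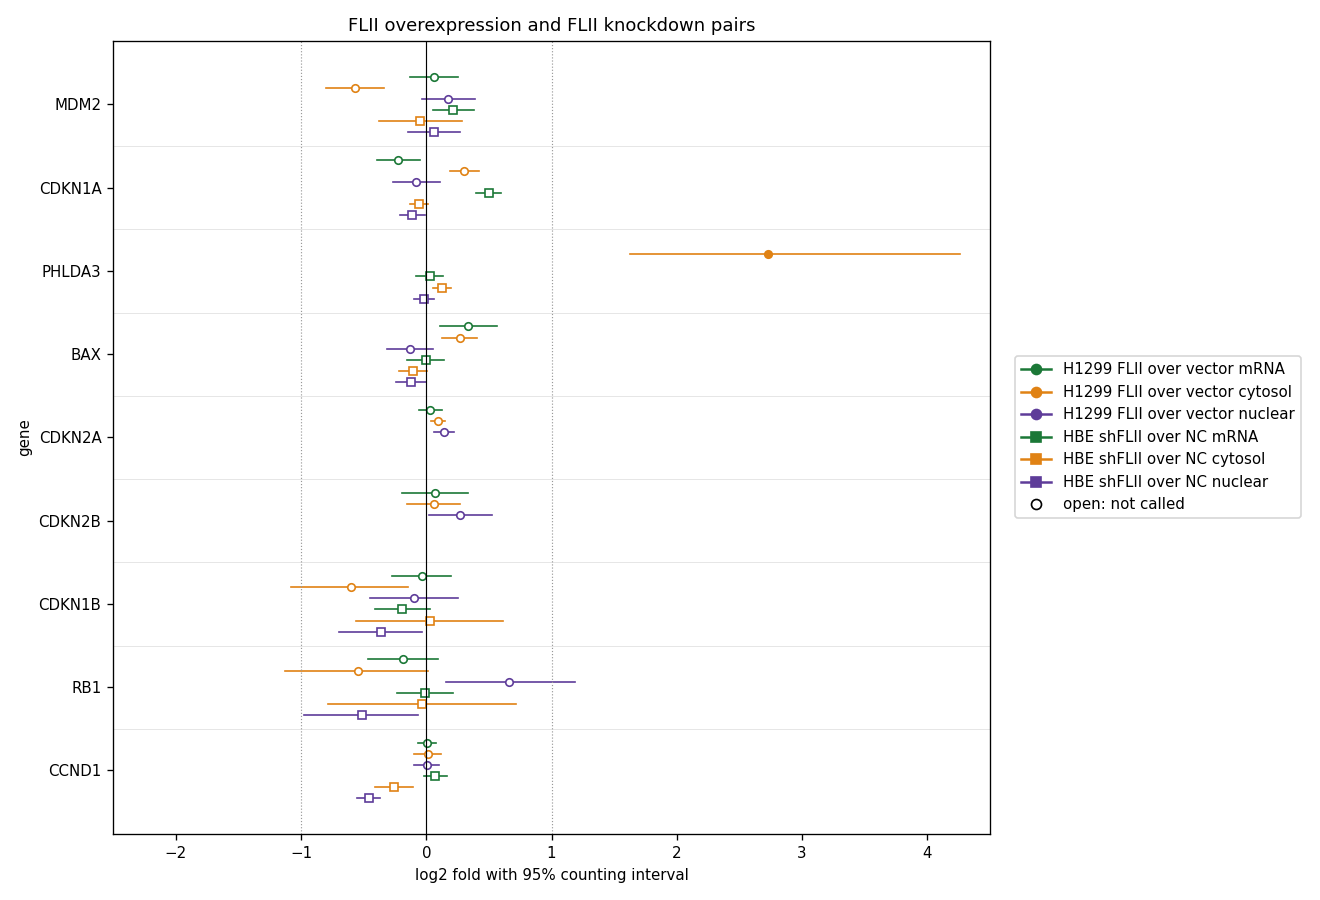
Log2 fold between FLII states for the 9 genes in each fraction outside RNC, H1299 FLII over H1299 vector and HBE shFLII over HBE NC, with 95% counting intervals and filled marks for called folds. The 1 filled mark among the 9 genes is PHLDA3 in H1299 cytosol, at 2.73.

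The pathway lists were also read between FLII states. In H1299 mRNA none of the 29 kept p53 targets, 24 RB pathway genes, 19 E2F targets or 12 BCL2 family genes was called, beside 0.798% of all genes. In HBE mRNA, 4.95% of all genes were called. Of 33 p53 targets 1 was higher, TP53I3 at 1.01 with 546 reads in HBE shFLII against 272 in HBE NC. The 2 lower ones were GDF15 at −1.0, with 1516 reads in HBE shFLII against 3055 in HBE NC, and PLK2 at −1.0. With total counts or the deposited RPKM 1 p53 target was higher and 0 were lower, so neither lower call held there. TP73, the p53 relative, had 114 reads in HBE shFLII against 421 in HBE NC, a log2 fold of −1.87. For TP73 the same contrast was 0.15 in cytosol and 0.29 in nuclear RNA, neither called. CCNE2, cyclin E2, was at 1.24 and RRM2, a ribonucleotide reductase subunit, at 1.12, each the only called gene of its list, of 24 and 19 kept genes. With the deposited RPKM 0 of the 24 RB pathway genes were called. In the BCL2 family BCL2 was at 1.80, on 22 reads in HBE shFLII against 6 in HBE NC, BIK at −1.47 and BOK at −1.03. That was 1 higher and 2 lower of 12 kept genes. With total counts 1 was higher and 1 lower, and with the deposited RPKM 0 were higher and 1 lower of 11. In HBE cytosol and nuclear RNA no kept p53 target, RB pathway, E2F target or BCL2 family gene was called. Over all genes 1.25% and 0.873% were called there. BIK was at 0.30 and 0.25 in these fractions, while GDF15, at −0.31 and −0.28, and BOK, at −0.52 and −0.67, kept their sign. In H1299 cytosol RRM2B, the p53-induced reductase subunit, had 18 reads in H1299 FLII against 59 in H1299 vector, a log2 fold of −1.05. It was 1 of 29 p53 targets called there, beside 2.68% of all genes, and with the deposited RPKM 0 of 24 were called. TP53I3, PLK2, TP73, CCNE2, RRM2, RRM2B and BCL2 are named as called genes of these lists, after their values were seen.

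Nuclear over cytosol ratios put the CDKN1A and BAX transcripts on the cytosol side, and that of PHLDA3 in HBE. CDKN1A was lower in the nuclear than in the cytosol library in all 4 cell states, at log2 −1.77 in H1299 FLII, −1.28 in H1299 vector, −1.80 in HBE shFLII and −1.74 in HBE NC. BAX stood at −1.24, −0.74, −1.14 and −1.12 in the same order, of which the H1299 vector value was not called. PHLDA3 was at −3.12 (−4.98 to −1.89) in H1299 FLII, on 5 reads against 32, at −1.23 in HBE shFLII and at −1.08 in HBE NC. In H1299 vector it had 8 nuclear against 7 cytosol reads, a log2 ratio of 0.40, below the read minimum. The H1299 FLII cytosol library holds the HBE-typical transcripts named above. In H1299 FLII 5 of 6 epithelial markers were lower in nuclear RNA too, with a median of −3.09, beside 18.3% of all genes and a median of 0.05. With total counts 4 of 6 were lower, with a median of −2.55, and with the deposited RPKM 4 of 7, with −1.44. The part of these markers in the PHLDA3 ratio was not tested. CDKN2A was at −1.29 in H1299 FLII and −1.24 in H1299 vector.

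The other members leaned less, or toward the nucleus. CDKN1B had nuclear over cytosol log2 ratios of 0.70 in H1299 FLII, 0.30 in H1299 vector, 0.52 in HBE shFLII and 0.91 in HBE NC. RB1 had 0.58, −0.52, 0.26 and 0.74 in the same order, so its sign differed between the 2 H1299 states. CCND1 had −0.15 and −0.03 in H1299 FLII and H1299 vector and 0.44 and 0.65 in HBE shFLII and HBE NC. MDM2 had 0.29 and −0.35 in H1299 FLII and H1299 vector and 0.51 and 0.41 in HBE shFLII and HBE NC. By count, 4 of 9 members were lower in nuclear RNA in H1299 FLII, beside 18.3% of genes, 2 of 8 in H1299 vector, beside 12.7%, 3 of 7 in HBE shFLII, beside 17.6%, and 3 of 7 in HBE NC, beside 17%. None was higher, beside 17.9%, 14.8%, 23.9% and 22.8% of genes in the same order. With total counts several of these calls were lost and others appeared: the calls of BAX, CDKN2A, PHLDA3 in HBE and CDKN1A in H1299 vector no longer passed, with their sign kept, and CDKN1B passed the threshold on the nuclear side in 3 states, between 1.08 and 1.45, RB1 in 2 states, at 1.12 and 1.28, CCND1 in HBE NC at 1.18 and MDM2 in HBE shFLII at 1.07.

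**Figure D5:**
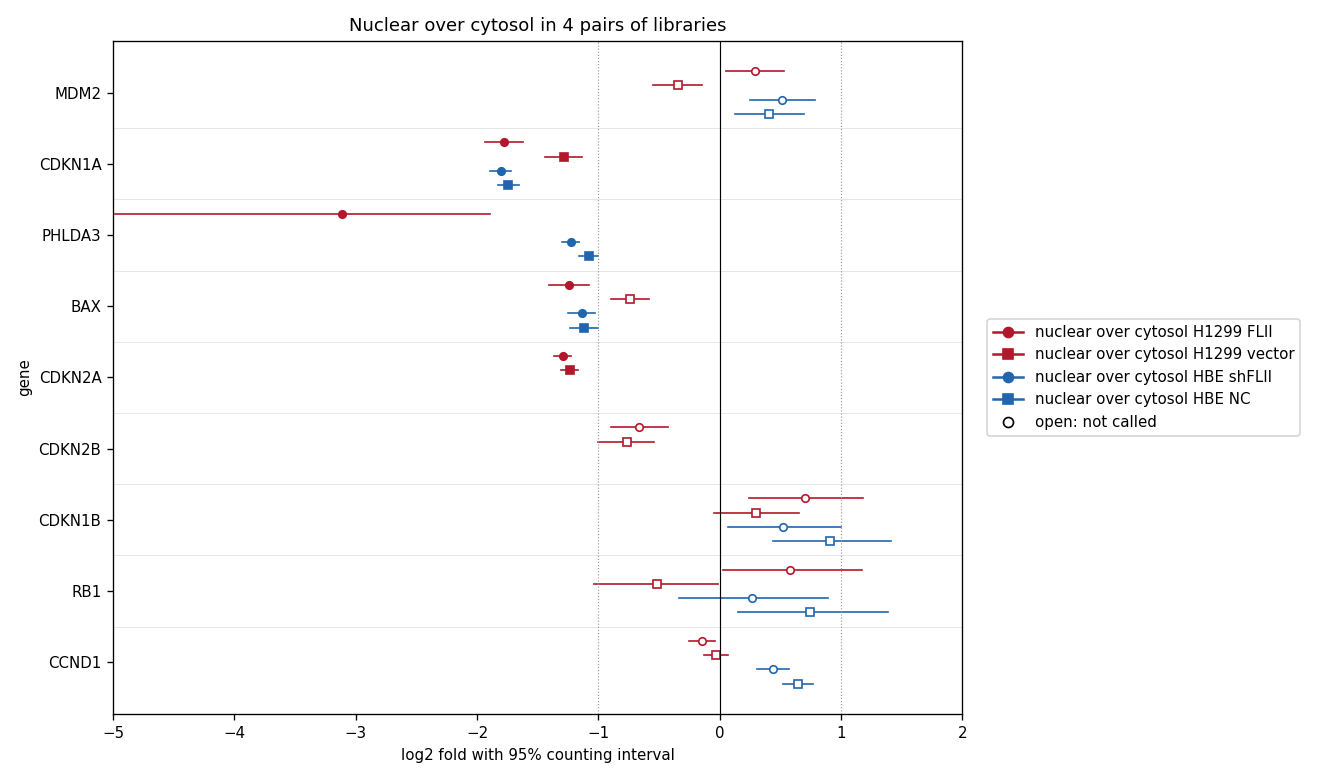
Log2 ratio of the nuclear over the cytosol library for each gene in the 4 cell states, with 95% counting intervals cut at the axis and filled marks for called ratios. CDKN1A lay between −1.80 and −1.28 in all 4 states, while CDKN1B lay between 0.30 and 0.91.

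The change of the nuclear over cytosol ratio with FLII was read as a difference of 2 ratios. In H1299 FLII against H1299 vector it was 0.64 (0.33 to 0.94) for MDM2 and 1.10 (0.37 to 1.83) for RB1, both toward the nucleus, and −0.49 (−0.71 to −0.27) for CDKN1A and −0.50 (−0.73 to −0.28) for BAX, both toward the cytosol. For CDKN2A it was −0.06 and for CDKN1B 0.40. In HBE shFLII against HBE NC it was −0.15 (−0.26 to −0.04) for PHLDA3 and −0.21 (−0.38 to −0.03) for CCND1, and the intervals of the other kept members included 0. The H1299 FLII cytosol library, which holds the HBE-typical transcripts named above, enters each of the H1299 differences.

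In RNC the levels of CDKN2A, CDKN2B and PHLDA3 did not follow the labels. CDKN2A had 0.0537 RPKM (3 reads) in the library labelled H1299 FLII and 228 (12439) in that labelled H1299 vector, and 172 (6665) in that labelled HBE shFLII and 0.0402 (2) in that labelled HBE NC. CDKN2B had 0 reads in the library labelled H1299 FLII and 0.387 RPKM (58 reads) in that labelled H1299 vector, and 0.423 (45) in that labelled HBE shFLII and 0 reads in that labelled HBE NC. PHLDA3 had 286 RPKM (17903 reads) in the library labelled H1299 FLII and 3.24 (198) in that labelled H1299 vector, and 13.8 (597) in that labelled HBE shFLII and 163 (9067) in that labelled HBE NC. The library labelled H1299 FLII thus had the high PHLDA3 and near-absent CDKN2A of the HBE libraries of the other fractions, and the library labelled HBE shFLII the high CDKN2A of the H1299 libraries. CDKN2A in the library labelled HBE shFLII was 75.5% of its level in that labelled H1299 vector, and PHLDA3 in the library labelled H1299 FLII was 176% of its level in that labelled HBE NC. Markers of the lines moved too: KRT5 had 9515 reads in the library labelled H1299 FLII and 0 in that labelled H1299 vector, and KRT17 had 153930 and 18. The summed level of the 8 epithelial markers was 4816 RPKM in the library labelled H1299 FLII and 855.6 in that labelled H1299 vector, and 1635 in that labelled HBE shFLII and 3572 in that labelled HBE NC. VIM, a mesenchymal marker, did not follow this split, with 25.9 and 69.0 RPKM in the libraries labelled H1299 FLII and H1299 vector, and 143 and 204 in those labelled HBE shFLII and HBE NC. The part of these markers in the members' values was not tested. The order of the 9 genes by RPKM was the same in the libraries labelled HBE shFLII and H1299 vector, from CDKN2A down to CDKN2B.

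The remaining members differed less between the RNC libraries. CDKN1A had 182 RPKM (15937 reads) in the library labelled H1299 FLII and 69.9 (5970) in that labelled H1299 vector, and 59.7 (3619) in that labelled HBE shFLII and 87.0 (6759) in that labelled HBE NC. MDM2 had 1.14 RPKM (329 reads) in the library labelled H1299 FLII and 2.63 (740) in that labelled H1299 vector, and 3.80 (758) in that labelled HBE shFLII and 3.35 (857) in that labelled HBE NC. BAX had 248 RPKM (8666 reads) in the library labelled H1299 FLII and 177 (6033) in that labelled H1299 vector, and 156 (3775) in that labelled HBE shFLII and 201 (6255) in that labelled HBE NC. BAX and CDKN1A were both highest in the library labelled H1299 FLII, and MDM2 was lowest there. CCND1 had 13.8 RPKM (2279 reads) in the library labelled H1299 FLII and 20.5 (3308) in that labelled H1299 vector, and 32.5 (3725) in that labelled HBE shFLII and 35.5 (5208) in that labelled HBE NC. CDKN1B had 1.54 RPKM (143 reads) and 1.23 (112) in the libraries labelled H1299 FLII and H1299 vector, and 2.33 (150) and 3.65 (302) in those labelled HBE shFLII and HBE NC. RB1, CDKN1B and CCND1 had lower RPKM in all 4 RNC libraries than in any mRNA library, and RB1 lay between 0.403 and 1.32 RPKM.

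Between RNC labels, 5 of 9 members were called for H1299 FLII over H1299 vector, beside 49% of genes. PHLDA3 was 75.8-fold higher and CDKN1A was higher by log2 1.17 (1.12 to 1.21), while MDM2 was at −1.42 (−1.61 to −1.23), CDKN2B was at least 23-fold lower, and CDKN2A, on 3 reads against 12439, had a log2 ratio of −12.03 (−14.55 to −10.72). For the labels HBE shFLII over HBE NC, 3 of 9 were called, beside 30.6% of genes: CDKN2B at least 24.5-fold higher, PHLDA3 9.27-fold lower, and CDKN2A at a log2 ratio of 12.01 (10.56 to 15.46) on 6665 reads against 2. For the labels H1299 vector over HBE NC, 2 were higher and 1 lower, beside 25.6% and 32.8% of genes. There CDKN2B was at least 34.8-fold higher, CDKN2A was at 13.03 (11.60 to 16.50), and PHLDA3 was 25.4-fold lower. In that pair MDM2 at 0.64, CDKN1A at 0.67, BAX at 0.80 and CCND1 at 0.19 were not called, and all 4 changed sign with total counts, to −0.35, −0.32, −0.19 and −0.79.

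Over the 16 libraries, the genes whose levels ran most like each member were found by Pearson's r of log2(CPM + 0.5) among 10719 genes with a mean of at least 5 CPM; the points share libraries and depth, and the r values describe these libraries only. PHLDA3 was most like TMEM98 (r = 0.994) and KRT19 (0.993), a simple epithelial keratin. CDKN2A was most like FAM101A (0.993) and MFAP2 (0.993), and CDKN2B most like MEF2C (0.989) and NXF2 (0.987), so neither was in the other's first 2. CDKN1A was most like THTPA (0.976) and ID3 (0.969), and BAX most like TAF10 (0.971) and LINC00116 (0.970). MDM2 was most like VPS26A (0.979) and FAM178A (0.969), CDKN1B most like AASDHPPT (0.991) and USP28, RB1 most like ANGEL2 (0.988) and NCK1 (0.985), and CCND1 most like RACGAP1 (0.983) and PPP1R8 (0.974). KRT19 was itself lower in H1299, at log2 −7.34 in the mRNA control pair, close to PHLDA3 at −7.03 there.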

How the data were processed

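Polyadenylated RNA of H1299 and HBE cells was sequenced in 16 libraries, 1 per line, FLII state and fraction. The authors deposited, per the file headers, a read count and an RPKM value for each gene, on GRCh37/hg19 per the submitters' processing notes; the aligner, counter and strand setting were not given in the sources used here. The deposited RPKM equals the count divided by gene length and library total. Folds were computed here from the deposited counts with 0.5 reads added after TMM scaling (edgeR 4.0.16, R 4.3.3), where a pair of libraries held 20 or more reads of a gene, with exact (Clopper-Pearson) 95% intervals. A gene was called at an absolute log2 fold of at least 1 with an interval that excluded a fold of 1; with 1 library a group no p-value was given. Against 0 reads, a floor of 3 reads per library gave a bound. Amplified copies of 1 molecule cannot be recognised, so counting error is the only error in these intervals and bounds. In all, 19 comparisons were made, 8 between FLII states, 7 between lines and 4 of nuclear over cytosol. The 9 genes and the 10 lists (127 entries, all found) were chosen with earlier results of these data known. From each list up to 4 genes with the most calls outside RNC were named, and for each of the 9 genes the 2 most alike. The 6 alternatives were DESeq2 1.42.0 size factors, total counts, the deposited RPKM (with 1 added), no read minimum, a minimum of 100 reads, and 5 reads added. The fold script was tested on simulated data. One listed gene is not reported here.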

Additional observations from a re-analysis of the deposited data

How the results depend on the processing

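No paired analysis was possible because the labels give no replicate numbers and each group is 1 library, and for the same reason no library could be left out within a group. The count of called members, higher and lower together, moved by over 1.5 times in 5 of the 19 comparisons, and by 1 gene in others. With a minimum of 100 reads it was 0 in place of 1 for H1299 FLII over H1299 vector in cytosol. With the deposited RPKM it was 3 in place of 5 between the RNC labels H1299 FLII and H1299 vector, 0 in place of 2 for nuclear over cytosol in H1299 vector, and 1 in place of 3 for nuclear over cytosol in HBE shFLII. With total counts it was 5 in place of 3 between the RNC labels H1299 vector and HBE NC, and 0 in place of 2 for nuclear over cytosol in H1299 vector. Direction moved more than these counts show. With total counts, nuclear over cytosol had 3 higher and 1 lower in HBE NC, in place of 0 and 3. It had 2 and 2 in H1299 FLII, in place of 0 and 4, and 2 and 1 in HBE shFLII, in place of 0 and 3. The cause was not tested. Total counts shifted the median log2 fold of all genes by over 0.1: to 0.25 from −0.01 for H1299 vector over HBE NC in mRNA, to 0.60 from 0.13 in cytosol, to 0.21 from −0.03 in nuclear RNA, to −1.22 from −0.24 in RNC, and to between 0.32 and 0.73 for nuclear over cytosol. For H1299 FLII over HBE shFLII it became 0.37 in cytosol and 0.21 in nuclear RNA, for HBE shFLII over HBE NC 0.14 in mRNA and −0.44 in RNC, and for H1299 FLII over H1299 vector 0.27 in RNC. The share of calls that were higher moved with it, to 59.8% from 48.7% for H1299 vector over HBE NC in mRNA, to 71.7% from 54.5% in cytosol and to 59.6% from 49.1% in nuclear RNA. For HBE shFLII over HBE NC it moved to 57.9% from 40.8% in mRNA and to 37.7% from 61.7% in RNC, and for nuclear over cytosol to between 80.7% and 88.3%. Members with few reads, above all PHLDA3 in H1299 and CDKN2A and CDKN2B in HBE, have the widest intervals, and a fold against 0 or 1 read is limited by depth.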
